A study of Homo sapiens with 2 samples.

Results

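The regions described here lie around TP63 and SOX2 on the long arm of chromosome 3, in lists of MLL3 and GRHL2 binding from KYSE510, a human cell line derived from squamous carcinoma of the esophagus. A region was taken where its summit fell between 189200000 and 189750000 (the TP63 window, 550 kb) or between 180900000 and 181900000 (the SOX2 window, 1 Mb) of chromosome 3, in hg19 coordinates. This gave 39 of the 165014 regions on assembled chromosomes. The TP63 window held 7 MLL3 and 18 GRHL2 regions, and the SOX2 window held 3 MLL3 and 11 GRHL2 regions. In the whole lists there were 12150 MLL3 and 152864 GRHL2 regions. Each antibody had 1 library of unperturbed, formalin-fixed cells, called against input, so no value carries an error between replicates. The cells with MLL3 or GRHL2 silenced by siRNA that the design mentions were not analysed here, and no expression was measured in these lists.

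TP63 (gene ID 8626) encodes p63, a transcription factor of the p53 family that specifies stratified epithelia. An upstream start gives the TA isoforms with a transactivation domain, and an internal start gives the delta-N isoforms, the prevalent form in basal squamous cells. SOX2 (gene ID 6657) encodes an HMG-box transcription factor of stem cells and of the developing foregut, and both genes are known as lineage factors of squamous carcinoma. MLL3, also called KMT2C, methylates histone H3 at enhancers. GRHL2, of the Grainyhead-like family, binds DNA and maintains epithelial gene expression. Both genes are transcribed toward higher coordinates. No hg19 annotation was used, so the gene positions are known to the nearest kb: TP63 from 189349 to 189615 kb with the internal start near 189507 kb, and SOX2 from 181430 to 181432 kb. Exons and introns were not assigned.

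GRHL2 had regions at the SOX2 start, and MLL3 had none there. The 2 GRHL2 regions were chr3:181429040-181429748 and chr3:181429888-181430654, with summits within 1 kb of the stated start. The sequence just upstream of this start is shown because it is the only start given here, of either gene, with a region on it. It is the RefSeq entry for SOX2, given in GRCh38.p14 (chr3:181711675-181711924, plus strand, 250 bases up to the annotated start). It was matched by gene symbol and not by position, so its place relative to the GRHL2 summits is not known here.
SOX2 upstream: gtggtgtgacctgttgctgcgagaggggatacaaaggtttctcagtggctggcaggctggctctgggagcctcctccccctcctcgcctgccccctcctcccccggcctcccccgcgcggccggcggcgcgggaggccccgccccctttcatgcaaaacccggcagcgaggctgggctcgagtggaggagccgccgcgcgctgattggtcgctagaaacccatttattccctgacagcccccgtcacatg
The 300-base RefSeq window, which also takes in the first 50 bases of the transcript, had a GC content of 63.3%, against a median of 58.7% over all 35116 promoters of this length. It was searched on both strands for AACCNGTT, the letters that Grainyhead proteins are known to bind, and held no match (capitals would mark one). A match was present in 606 of the 35116 promoters (1.73%). The RefSeq promoter entry for TP63, which was not placed in hg19, held none either. The absence of these letters says nothing about other parts of the regions.

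For every region the deposited fold enrichment and p-value together fixed the number of fragments stacked at the summit and the background expected there. In the peak caller's model the fold equals fragments plus 1 over background plus 1, and the p-value is the Poisson chance of more fragments than observed. A whole number of fragments satisfied both values, within 0.001 in −log10 p, in all 12150 MLL3 and all 152864 GRHL2 regions. The median was 17 fragments in the MLL3 list (8 to 185) and 6 in the GRHL2 list (4 to 491). The lowest background, 1.26 fragments for MLL3 and 1.502 for GRHL2, was shared by 22.3% and 42.3% of regions, and local backgrounds are given below as multiples of it. Intervals on fragments are exact Poisson 95% intervals and cover counting error only.

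All 7 MLL3 regions of the TP63 window coincided with GRHL2 regions, and none lay near the TA start. The share was 7 of 7 (exact Clopper-Pearson 95% interval 59.04 to 100%), beside 85.0% of the whole MLL3 list. The first MLL3 region was 22.6 kb before the delta-N start, 3 were inside the gene after that start, and 3 were beyond the gene end. The stretch from the window's left edge to 135 kb past the TA start, which includes that start, held 8 GRHL2 regions and no MLL3 region. A stretch without MLL3 as long as the one around this start (410 kb) was not rare, at 127 of 599 on chromosome 3. Fold enrichment of the 7 ran from 5.23 to 26.8 with a median of 8.18, beside 6.49 for the whole list. They carried 28 to 151 fragments with a median of 42. Summits of the paired regions were 14 to 110 bp apart. In 6 of 7 pairs the distance was within 100 bp, beside 41.7% of all MLL3 regions, which include those that overlap no GRHL2 region.

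**Figure D1:**
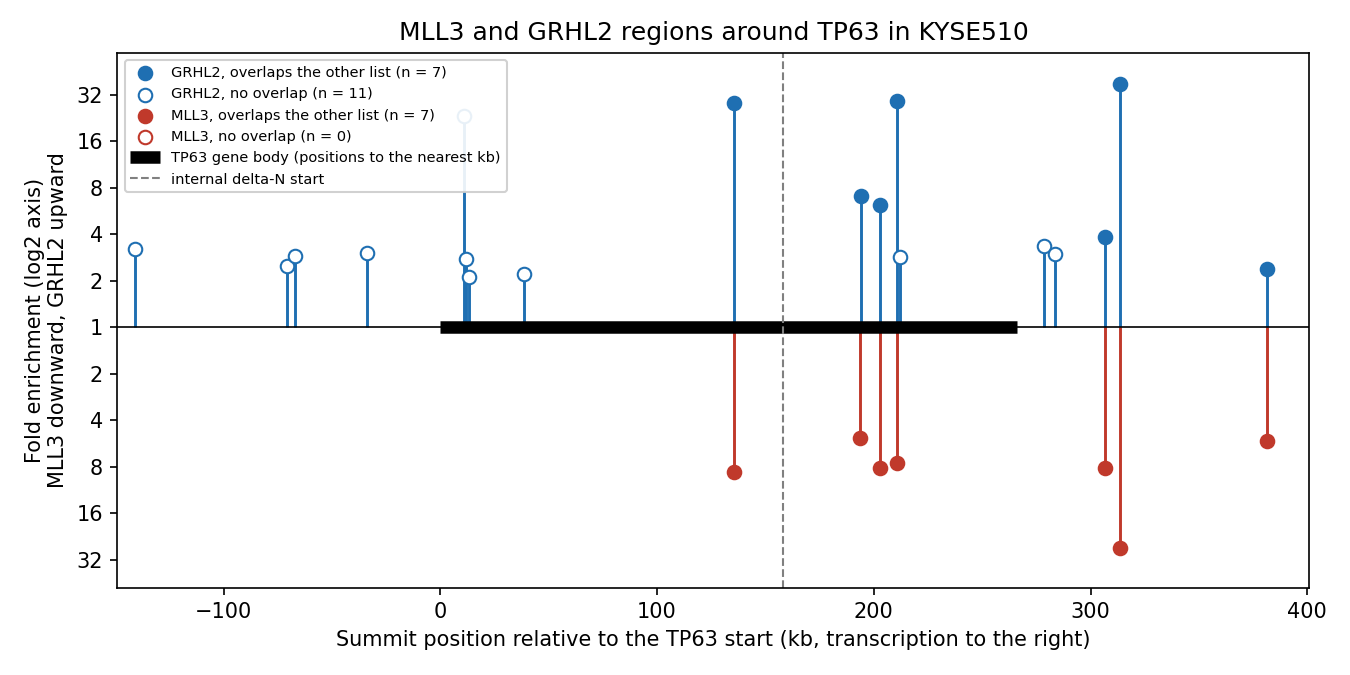
Fold enrichment (log2 axis) of each region against the distance of its summit from the TP63 start in kb, with GRHL2 upward and MLL3 downward. Filled points overlap a region of the other list. All 7 MLL3 regions are filled and lie right of the first part of the gene, where only GRHL2 has regions.

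The strongest site of the TP63 window lay beyond the gene's 3′ end. MLL3 region 6, counted from left to right (chr3:189662063-189662901, 47.5 kb past the gene end), had a fold of 26.8 and 151 fragments (95% interval 128 to 177) over a background of 4.66. Among the 12150 MLL3 regions it had rank 154 by fold and rank 5 by fragments. The GRHL2 region on it (chr3:189661403-189663073) had a fold of 37.4 and 242 fragments (212 to 274), the highest of all 39 regions, and had rank 423 of 152864 by fragments. Its summit was 110 bp from that of MLL3. A weaker pair stood to its left, in a run that spanned 7.54 kb, where MLL3 region 5 (chr3:189655362-189655856) had 42 fragments and a fold of 8.18, and GRHL2 had 24 fragments and a fold of 3.86. Farther out, 115 kb past the gene end, MLL3 region 7 (chr3:189730096-189730587, fold 5.41, 31 fragments) met a GRHL2 region of fold 2.37 whose −log10 q was only 1.15.

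Inside TP63, strong GRHL2 regions lay on both sides of the delta-N start, and none on it. On the upstream side GRHL2 had a fold of 28.4 and 158 fragments (95% interval 134 to 185) at chr3:189483958-189485028, 22.6 kb before that start. MLL3 region 1 sat on it (chr3:189484197-189484525) with a fold of 8.69 and 39 fragments (27.7 to 53.3), 30 bp from the GRHL2 summit. No region of either list fell between this pair and the next one 35.9 kb past the delta-N start. There a run of 3 MLL3 regions began, each less than 10 kb from the next, which spanned 17.3 kb (chr3:189542689-189559951). Runs of 3 or more regions made up 3.45% of the 9103 MLL3 runs and single regions formed this way.

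The 3 pairs of that run differed in the ratio of GRHL2 to MLL3 fragments. MLL3 region 2 (chr3:189542689-189543014) had 28 fragments and a fold of 5.23, against 44 fragments and a fold of 7.04 for GRHL2. MLL3 region 3 (chr3:189551794-189552072) had 42 fragments (30.3 to 56.8) and a fold of 8.18, and GRHL2 had 37 (26.05 to 51.0) and a fold of 6.15, with summits 14 bp apart. MLL3 region 4 (chr3:189559414-189559951) had 51 fragments (37.97 to 67.1) and a fold of 7.54, whereas GRHL2 reached 231 fragments (202 to 263) and a fold of 29.3. Over the 7 pairs of the window, GRHL2 fragments were 0.484 to 4.53 times those of MLL3. The libraries' depths are unknown, so these ratios order the sites and not the factors. They were highest at the pair before the delta-N start and at region 4, and lowest at regions 5 and 7, beyond the gene.

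The TA end of TP63 carried a strong GRHL2 region without MLL3. It lay 10.7 kb past the TA start (chr3:189359320-189360425) with a fold of 23.4, a −log10 q of 70.9 and 63 fragments (95% interval 48.4 to 80.6). In the whole list, 38.3% of the 3935 GRHL2 regions with a −log10 q between 20 and 100 overlapped an MLL3 region, so a lone region of this strength was common. Among the 1257 MLL3 regions with a background within 10% of that found there, the smallest listed had 8 fragments. The other 7 GRHL2 regions of this end had folds of 2.12 to 3.20 and 5 to 11 fragments, and the −log10 q of each was below 2. Over the whole window 7 of 18 GRHL2 regions overlapped MLL3 (38.9%, 95% interval 17.3 to 64.3%), beside 6.15% of the whole list. A −log10 q of at least 2 was reached by 10 of the 18, beside 19.7% of the list. The median GRHL2 fold of the window was 3.11, beside 2.77 for the whole list, and 6.59 beside 4.54 where that q was reached. With both lists held to a −log10 q of at least 5, 6 of 7 GRHL2 regions of the window overlapped MLL3 (85.7%, 95% interval 42.1 to 99.6%), beside 33.6% of the 14248 GRHL2 regions of the whole list that pass this filter.

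**Figure D2:**
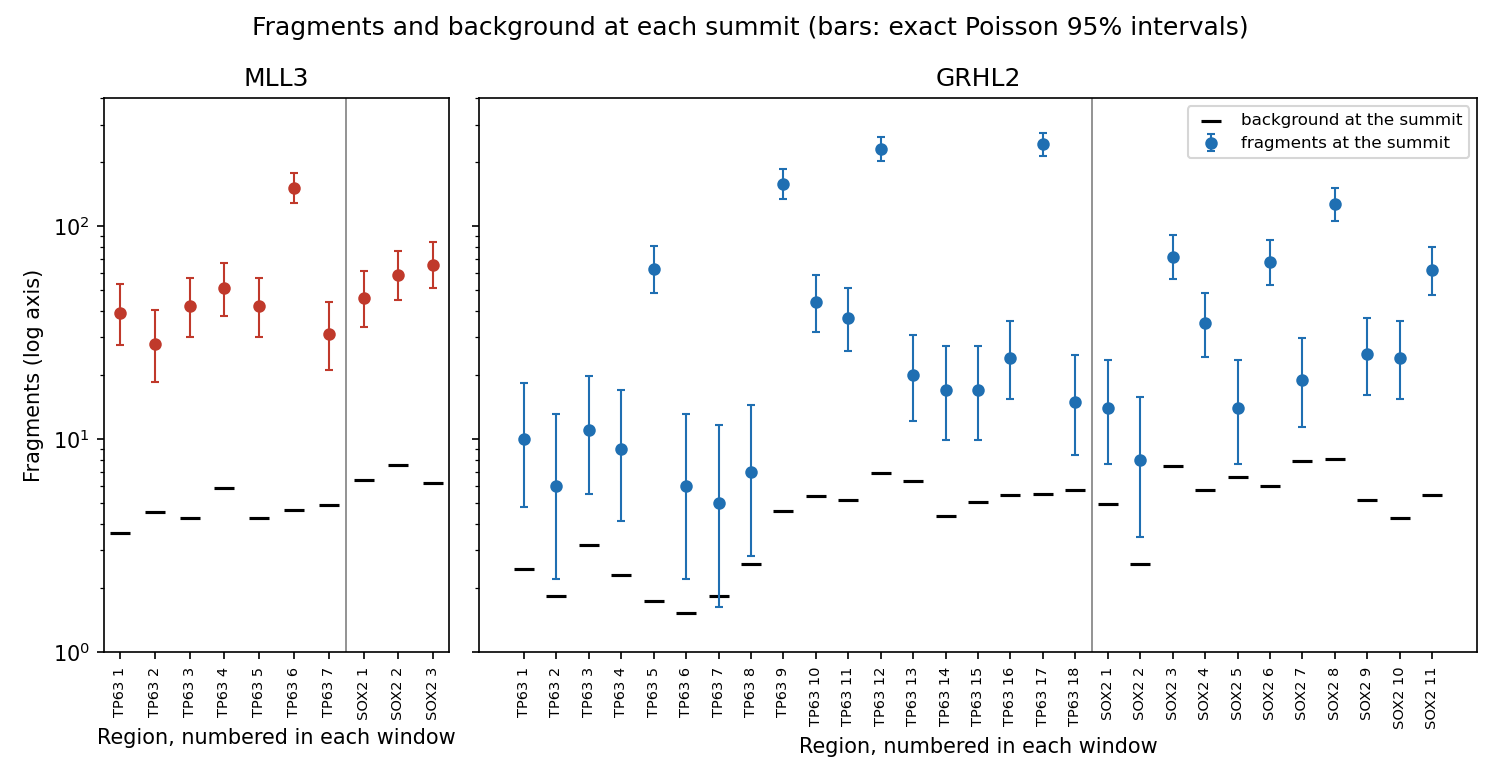
Fragments at the summit (points, with exact Poisson 95% intervals) and the background there (black bars) for all 10 MLL3 and 29 GRHL2 regions, numbered from left to right in each window, on a log axis. GRHL2 backgrounds in the TP63 window are 1.53 to 3.17 fragments in regions 1 to 8 and 4.33 to 6.91 in regions 9 to 18.

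Around SOX2, both factors were found downstream of the gene, and GRHL2 also at its start. The left GRHL2 region at the start (region 3) had a fold of 8.61 and 72 fragments (95% interval 56.3 to 90.7). The right one (region 4) had a fold of 5.33 and 35 fragments (24.4 to 48.7). Their −log10 q values were 41.7 and 13.6. No MLL3 region came closer to the SOX2 start than 204 kb. At a background within 10% of that of region 3, the list had 25 MLL3 regions, the smallest with 21 fragments, so a weaker MLL3 signal at the start may have gone unlisted. SOX2 lay near the right end of a stretch of 4312 kb without any MLL3 region. Only 1 other of the 599 such stretches on chromosome 3 was as long, and the median was 100 kb. Over all chromosomes, 32 of 12127 stretches (0.264%) were as long, those across centromeres included. The stretch held 16 GRHL2 regions, of which 9 had a −log10 q of at least 5.

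The 3 MLL3 regions of the SOX2 window lay between 204 and 340 kb past the SOX2 start. MLL3 region 1 (chr3:181633467-181633905) had a fold of 6.31 and 46 fragments (95% interval 33.7 to 61.4), and the GRHL2 region on it was weak, with a fold of 2.26, 19 fragments and a −log10 q of 1.34. A GRHL2 region of fold 9.79 and 68 fragments (52.8 to 86.2), without MLL3, stood 2475 bp away (chr3:181631015-181631576). MLL3 region 2 (chr3:181692007-181692380) had a fold of 7.03 and 59 fragments (44.9 to 76.1) and was the only one of the 10 MLL3 regions without GRHL2, the nearest GRHL2 summit being 58497 bp away. At MLL3 region 3 (chr3:181770107-181770521) both factors were at their highest of the SOX2 window. MLL3 had a fold of 9.28 and 66 fragments (51.04 to 83.97), GRHL2 had a fold of 14.1 and 127 fragments (106 to 151), and the summits were 40 bp apart.

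**Figure D3:**
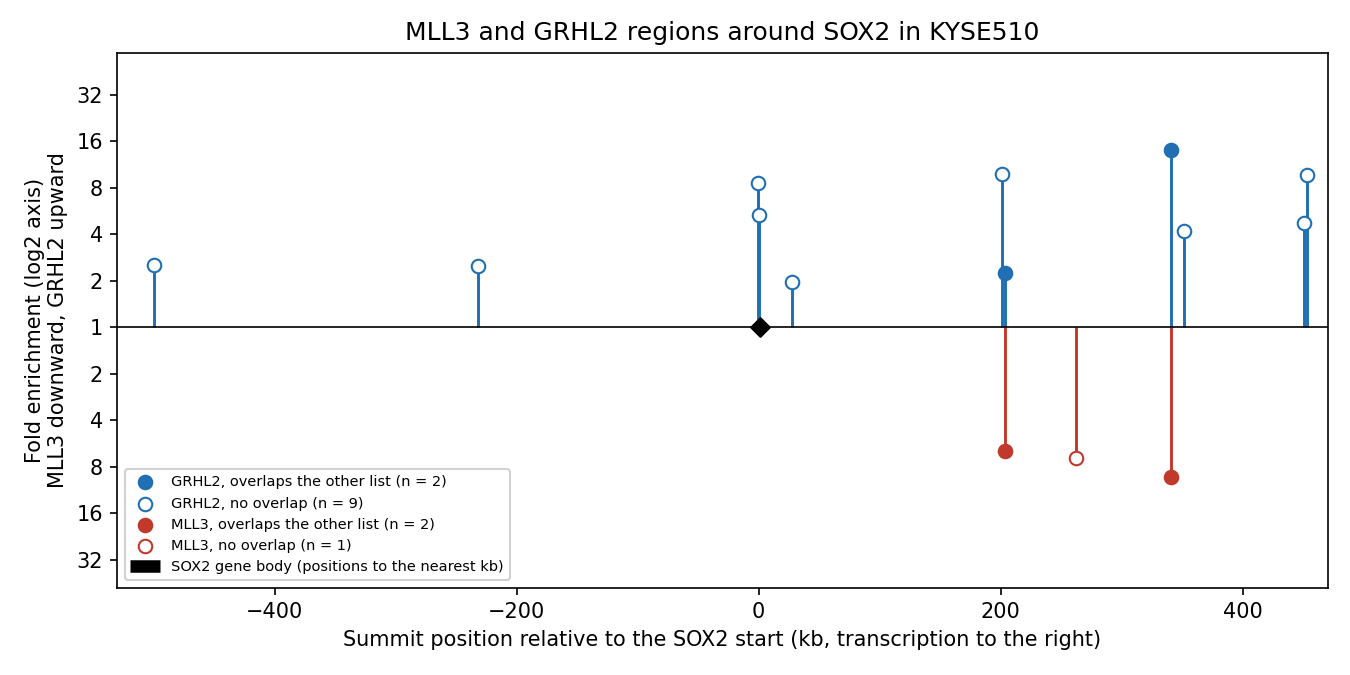
Fold enrichment (log2 axis) of each region against the distance of its summit from the SOX2 start in kb, with GRHL2 upward and MLL3 downward, and SOX2 marked by a diamond. GRHL2 alone is listed at the gene, and the 3 MLL3 regions start 204 kb downstream.

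Around SOX2, 2 of 11 GRHL2 regions overlapped MLL3 (18.2%, 95% interval 2.28 to 51.8%), beside 6.15% of the whole list. Under the filter used above for TP63 (−log10 q of 5 or more) it was 1 of 7 (14.3%, 95% interval 0.361 to 57.9%), against the 6 of 7 around TP63 and 33.6% of the whole list. The intervals of the windows overlapped, neighbouring regions are not independent, and the difference was not tested. The last GRHL2 region, 453 kb from the SOX2 start (chr3:181882963-181883614), had a fold of 9.74 and 62 fragments. Median folds of the window were 7.03 for MLL3 and 4.76 for GRHL2, beside 6.49 and 2.77 for the whole lists. Where GRHL2 reached a −log10 q of 2, the medians were 8.61 in the window and 4.54 in the whole list. Per Mb, the SOX2 window held 3 MLL3 regions and the TP63 window 12.7, against 3.03 over chromosome 3 and 4.06 over all chromosomes. GRHL2 had 11 and 32.7 per Mb in these windows, against 37.9 over chromosome 3 and 51.1 over all chromosomes. With a −log10 q of 2 or more GRHL2 had 7 and 18.2, against 7.55 and 10.1. The 1 Mb bin that holds TP63 had 16 MLL3 regions, the most of the 194 occupied bins of chromosome 3, of which the median bin had 2. Of these 16, 7 were in the TP63 window.

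The background was at least 3 times the lowest of its list at 27 of the 39 regions, and a higher background lowers the fold for the same fragments. This held for 6 of 7 MLL3 regions around TP63 and 3 of 3 around SOX2, beside 2.80% of the MLL3 list. It held for 9 of 18 and 9 of 11 GRHL2 regions, beside 0.529% of the GRHL2 list. By fragments 35 of the 39 regions exceeded a larger share of their list than by fold, and 4 GRHL2 regions at the TA end of TP63 a smaller one. How many regions of the whole lists rise in this way was not counted, so these numbers only describe the 39. Whether fragments also rise with the background was not tested, so neither measure is taken as the truer strength of a site. MLL3 region 4 of TP63 exceeded 63.8% of the list by fold and 95.3% by fragments, and MLL3 region 2 of SOX2 exceeded 57.1% and 96.9%. At MLL3 region 2 of TP63 the shares were 24.4% and 79.6%. Both lists gave nearly the same relative background at each shared site. Both were called against input, and whether 1 input served both was not examined. The lists are therefore not taken as 2 independent measures of the background. At the strongest TP63 site it was 3.71 times the lowest for MLL3 and 3.66 times for GRHL2.

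Within TP63 the background differed between the 2 ends, and all 7 MLL3 regions of the window were on the high side. No summit of either list lay between 38.5 and 135 kb past the TA start, so how the background changed there is not known. The 8 GRHL2 regions from the left edge of the window to 38.5 kb past the TA start had backgrounds of 1.02 to 2.11 times the lowest (median 1.38). The 10 from 135 kb past the TA start onward had 2.88 to 4.601 times (median 3.62). The 7 MLL3 regions, over the same 246 kb, had 2.87 to 4.69 times. To the right, 14 GRHL2 regions between 407 and 635 kb from the TA start fell back to 1.03 to 2.68 times (median 1.53), and 4 MLL3 regions there to 1.56 to 2.34 times. In the 250 kb left of the window, single regions reached 3.07 times for GRHL2 and 3.13 times for MLL3, within the range of the high stretch. The delta-N start lay inside the high stretch and the TA start outside it. The bounds of this stretch were set after the values were seen, and so is the comparison. Whether DNA copy number differed along TP63 was not analysed here, and its part in where MLL3 regions were listed was not tested.

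**Figure D4:**
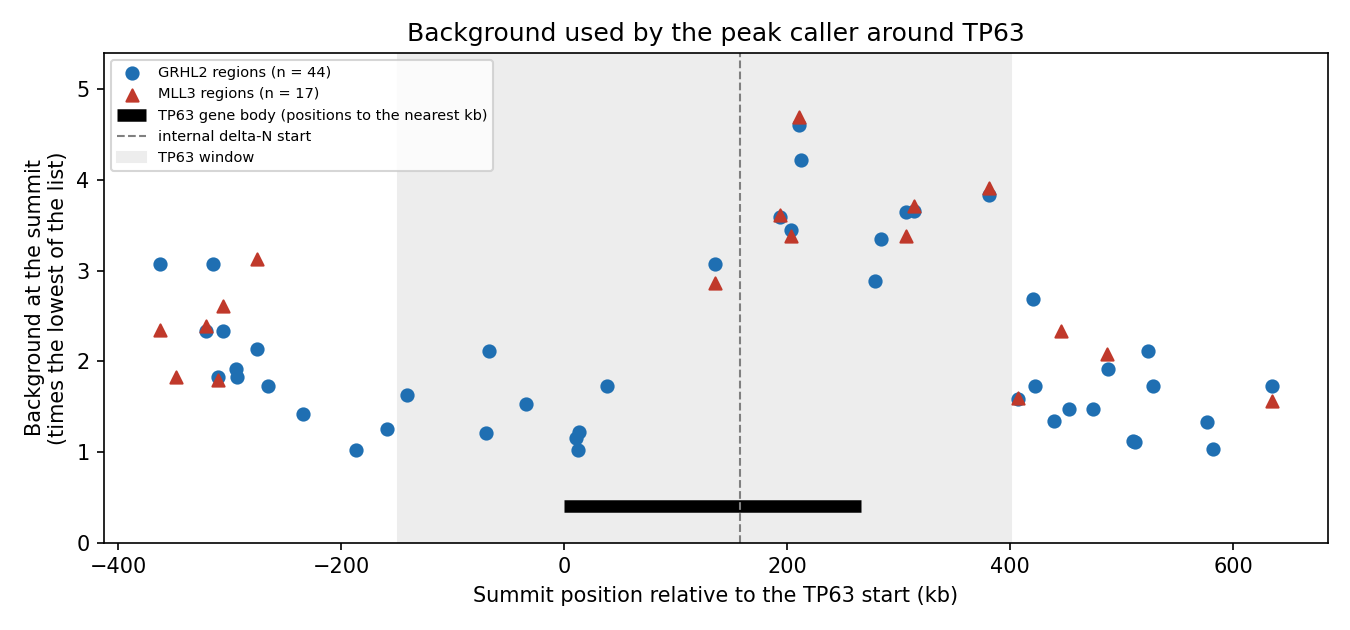
Background at each summit, as a multiple of the lowest in its list, against the distance from the TP63 start in kb, for regions in the TP63 window (grey) and 250 kb to each side. In both lists, backgrounds are 2.87 times or more at all summits from 135 to 381 kb past the TA start (246 kb). The delta-N start lies toward the left end of this stretch. Backgrounds are lower near the TA start, where only GRHL2 has regions. Both lists were called against input and are not independent measures of it.

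SOX2 stood in a longer stretch of high background on the same chromosome. The median over the GRHL2 regions of a 1 Mb bin was 3.29 to 4.53 times the lowest in the 9 bins from 179000001 to 188000000, and at most 3.26 times in the other 185 occupied bins. In the 114 occupied bins up to 116000000 it was between 1.00 and 1.22 times. In the 59 occupied bins from 118000001 to 179000000 it was between 1.27 and 3.26 times (median 2.30). The 8 bins from 190000001 on had 1.34 to 2.15 times. These bounds too were drawn after the values were seen, and from the GRHL2 list only. Some MLL3 medians outside the 9 bins were also high. They were 4.43 times over 3 regions from 188000001 to 189000000, and 4.56 times over 2 from 171000001 to 172000000. The GRHL2 list held 6466 regions up to 116000000 and 502 from 118000001 to 179000000, and the MLL3 list held 381 and 126. These stretches differ in length (114 and 59 occupied bins), and counts also varied widely at low background. At a median of 1.00 times, the bin from 111000001 to 112000000 held 188 GRHL2 regions and that from 70000001 to 71000000 held 7. The part of the background in these counts was not tested.

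**Figure D5:**
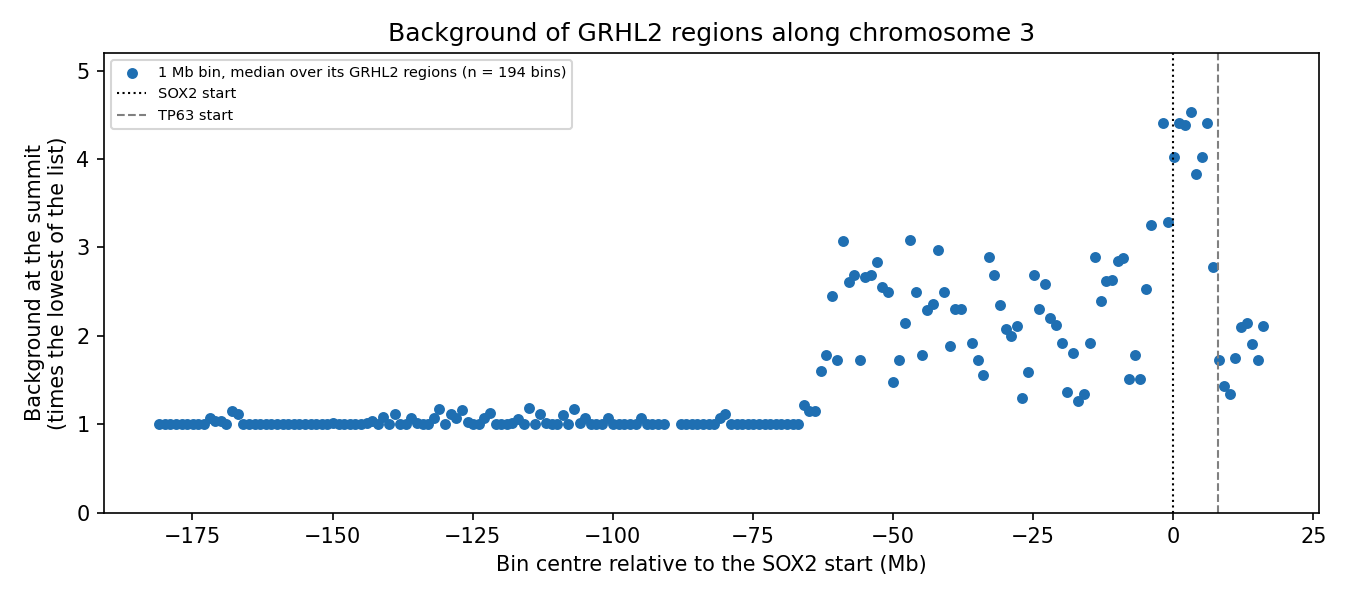
Median background of the GRHL2 regions in each occupied 1 Mb bin of chromosome 3, as a multiple of the lowest in the list, against the distance of the bin from the SOX2 start in Mb. The 9 bins of 3.29 times or more form 1 block that starts left of SOX2 and ends before TP63.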

How the data were processed

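Per the labels' protocols, chromatin of KYSE510 cells was fixed, sonicated and precipitated with an MLL3 or a GRHL2 antibody, 1 library each. The submitters' processing notes list BWA, Picard, MACS2, deepTools and hg19. Their settings and versions are not given in the sources here. The authors deposited 1 list of regions per antibody, with a fold enrichment (a ratio of ChIP signal to local background), a −log10 p-value, a −log10 q-value and a score. The deposited score is 10 times the −log10 q in 12195 of 12196 MLL3 lines and 10 times the −log10 p in all 153209 GRHL2 lines. The lowest −log10 q is 2.07 for MLL3 and 0 for GRHL2, so the lists end at unequal thresholds. The 46 and 345 lines on other contigs were left out. Library depth is unknown.

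Regions were assigned by summit, and an overlap of at least 1 bp counted as shared. Fragments and background were solved from fold and p with a pseudocount of 1, an analysis added after the data were seen. Computations used Python 3.11.15 and scipy 1.17.1, and the recovery and the overlap were tested on simulated data. The regions named are the 5 of highest fold per antibody and window, those nearest to each start, all MLL3 regions where a window had 10 or fewer, and MLL3 regions without GRHL2. The weaker GRHL2 partners of MLL3 regions were named after their values were seen. The members and windows were chosen with earlier results of these data known. Gene lists, genes of similar pattern, and motifs in regions need an hg19 annotation or sequence and were not run. With 1 library per antibody there was no test.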

Additional observations from a re-analysis of the deposited data

How the results depend on the processing

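Of 52 alternative values, 43 stayed within 1.5 times the reported count or within the interval of the reported share or median. The others concern GRHL2. Its 18 regions around TP63 became 10 with a −log10 q of 2 or more, 7 with 5 or more, 6 with a fold of 5 or more and 28 in a window widened by 100 kb on each side. Its 11 around SOX2 became 7, 7 and 5 at those thresholds. The share of TP63 GRHL2 regions with MLL3 rose from 38.9% to 85.7% where every region of both lists had a −log10 q of 5 or more, and to 83.3% where only the 12150 GRHL2 regions of lowest q were used. Over the whole GRHL2 list the share went from 6.15% to 33.6% and 39.9% in the same settings. The median GRHL2 fold around SOX2 was 4.76 over all 11 regions and 8.61 over the 7 with a −log10 q of 2 or more. The interval of the MLL3 share around SOX2 (9.43 to 99.2%) is so wide that no alternative left it. That share was 66.7% over all regions, and 33.3% once those with a −log10 q below 2, or below 5, were dropped. Using only the 12150 GRHL2 regions of lowest q also gave 33.3%. Around TP63, 100% of the MLL3 regions overlapped GRHL2. This became 85.7% without the regions below either bound, and 71.4% with the 12150 GRHL2 regions. Requiring an overlap of 50% of the shorter region changed neither share. With regions up to 20 kb apart joined in place of 10 kb, the run of 3 MLL3 regions in TP63 still spanned 17.3 kb. No paired analysis was possible because there was a single library for each factor.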
